A study of Mus musculus with 12 samples.

Results

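The perineuronal net and the matrix around it were followed through 10 genes in mouse primary hippocampal cultures: the lecticans Acan, Bcan, Ncan and Vcan, the proteoglycan Cspg5, the tenascins Tnr and Tnc, the link proteins Hapln1 and Hapln4, and the hyaluronan synthase Has2. They were taken by name from the 48709 genes in the count files. All 10 passed the filter on low counts that left 18847 genes to test. The study asked which transcripts respond when miR-148a-3p, a member of a circulating microRNA signature, is raised in such cultures. Hippocampi of pooled CD1 embryos, taken at embryonic day 17, were plated; treatment began 10 days later and lasted 48 h, so that RNA was taken on day 12 in vitro. The 6 mimic cultures received lipid nanoparticles with a miR-148a-3p mimic, the 6 control cultures received nanoparticles with a negative control oligonucleotide, and ApoE4 was added to both groups. The labels call the cells neurons, while the study describes such cultures as holding neurons and glia. The labels do not say that the samples of a group came from separate dissections, so the p-values measure the spread between these samples, which may be technical.

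Perineuronal nets are lattices of extracellular matrix that wrap some neurons, parvalbumin interneurons above all, as the brain matures. Hyaluronan chains made at the cell surface form the backbone, lecticans bind to it through their N-terminal domain with the help of link proteins, and tenascin-R cross-links the lecticans at their other end. A looser matrix of the same kind, rich in versican, neurocan and tenascin-C, surrounds cells during development, and glial cells make many of its components.

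The mature strand of the mimic and the strand listed for the negative control are shown because the seed, bases 2 to 8 in capitals, is what each oligonucleotide would pair with in a transcript. The mimic strand in the reagent list of the study was the same as RefSeq's mature miR-148a-3p (GRCm38.p6, chr6:51269829-51269850, minus strand). That the listed negative control is the one given to these cultures is assumed.
miR-148a-3p: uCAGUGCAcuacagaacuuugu
negative control: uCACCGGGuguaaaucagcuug

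The longest annotated 3′ untranslated region (UTR) of each member was searched on the transcribed strand for TGCACTG, the match to bases 2 to 8, and for GCACTGA, the match to bases 2 to 7 followed by an A; where both overlap the site has 8 bases. A match was held by 3 members and by none of the other 7. Over the 15079 tested genes with such a UTR, 21.9% held a miR-148a-3p match and 4.15% an 8-base match. Tnr, with the longest of these UTRs at 7516 bases, held 2 matches, of which the first has 8 bases. Tnc held 1 match in 648 bases and Hapln4 held 1 in 2341 bases. The 4 windows are given in transcript direction with the match in capitals; they lie in the 3′ UTR exons of their genes (GRCm38) at chr1:159928142-159928171 and chr1:159928295-159928323 (plus strand) for Tnr, chr4:63960272-63960300 (minus strand) for Tnc, and chr8:70088632-70088660 (plus strand) for Hapln4.
Tnr, first: atcctactgtcTGCACTGAaatactcgtaa
Tnr, second: catacaactaaGCACTGAaggtcctctcc
Tnc: ggatcactgagGCACTGAtgtaggcccct
Hapln4: cacccctgcggTGCACTGcagactgatct
No member UTR held a match to the seed of the negative control, CCCGGTG or CCGGTGA, against 4.42% of the UTRs searched. A match is a description of the letters and not a site shown to bind.

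The libraries held 20018234 to 37149112 counts. Of the control libraries, 2 stood apart and had the lowest totals. Distance was the root mean square log2 difference over genes to each other library of the same group, averaged over those libraries. Control replicate 1 was at 0.309 and control replicate 2 at 0.243, while the other 10 libraries were between 0.192 and 0.224. Results that rest on these libraries are given with and without them. Markers of glial and dividing cells also moved between the groups. The summed level of the 11 astrocyte markers was 5230 to 5750 CPM (counts of a gene relative to the scaled library total) in control and 6360 to 6790 in mimic, with 8 of the 11 higher and 1, Gfap, lower. Of 7 tested oligodendrocyte precursor markers 6 were higher, with a sum of 386 to 679 CPM in control and 764 to 959 in mimic; the 679 belongs to control replicate 1, and no other control exceeded 416. Most of these sums is 1 gene, Olig1, at 594 CPM in control replicate 1, 306 to 339 in the other controls and 652 to 834 in mimic. All 8 markers of proliferating cells were higher (181 to 222 CPM in control, 371 to 393 in mimic). The 10 neuron markers summed to 9230 to 9910 CPM in control and 9460 to 9830 in mimic, with 1 higher and 2 lower. No marker on these lists was at 0 in every library. The part of these markers in the results below was not tested, and in bulk RNA fewer cells of a type and less RNA per cell cannot be told apart.

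Of the 10 members, 5 were higher in mimic, namely Bcan, Vcan, Hapln1, Ncan and Tnr, and 1, Acan, was lower (edgeR quasi-likelihood test, Benjamini-Hochberg adjusted p under 0.05 over all tested genes). Cspg5, Tnc, Hapln4 and Has2 did not pass. Among all tested genes 11.5% were called higher and 10.7% lower. In Bcan, Ncan and Vcan every mimic library lay above every control library, and among all genes 13.3% had groups that did not overlap in either direction. The median log2 fold change of the members was 0.18, beside -0.012 for all tested genes.

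**Figure D1:**
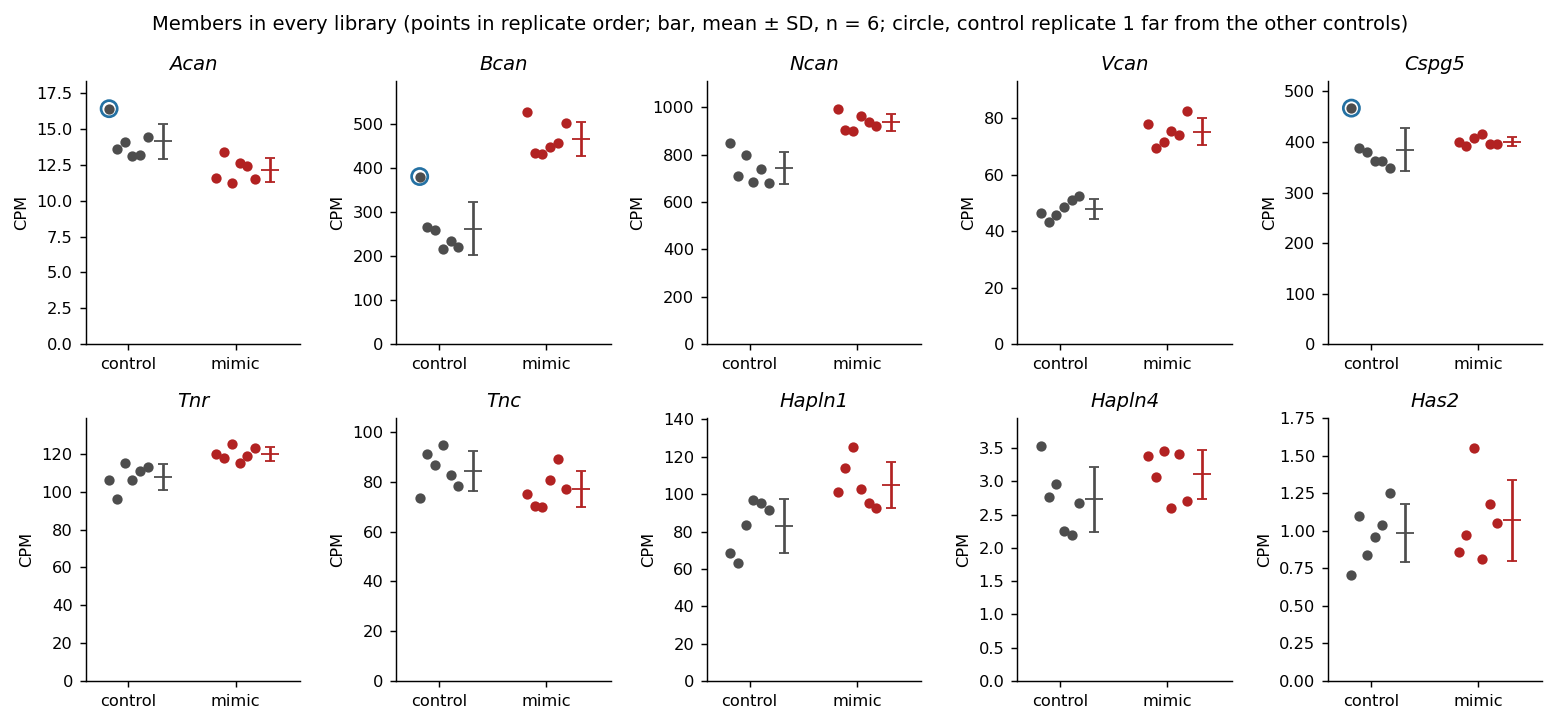
Level of each member in CPM (vertical axis, from 0) in the 6 control (grey) and 6 mimic (red) libraries, with the mean ± SD beside each group. Bcan, Ncan and Vcan do not overlap between groups, and control replicate 1, circled, lies above the other controls in Acan, Bcan and Cspg5.

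The lecticans are chondroitin sulfate proteoglycans that share a hyaluronan-binding head and a tenascin-binding tail. They moved in different directions. Bcan (ENSMUSG00000004892, chr3:87987531-88000230), which encodes brevican, a short lectican made by astrocytes, oligodendrocyte precursors and neurons, had 215 CPM in the lowest control library, a median of 246 and a highest value of 380. In mimic the lowest was 431 CPM, the median 450 and the highest 526. All 6 mimic libraries were above all controls, with control replicate 1 at 380 and the next control at 265. The mean rose 1.78-fold, from 262 ± 61.0 to 465 ± 39.2 CPM (here and below mean ± SD, n = 6 a group), a log2 fold change of 0.83 ± 0.12 (SE) with an edgeR adjusted p of 0.000148. Without control replicate 1 the log2 fold change was 0.96, and without control replicates 1 and 2 it was 1.00.

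Vcan (ENSMUSG00000021614, chr13:89655312-89742509) encodes versican, the large lectican of the developing matrix. Its control libraries ran from 43.1 through a median of 47.5 to 52.3 CPM, and its mimic libraries from 69.5 through 74.8 to 82.7 CPM. The gap between the highest control and the lowest mimic was wider than the range of the controls. The mean rose 1.57-fold (47.9 ± 3.41 to 75.2 ± 4.68 CPM; log2 fold change 0.65 ± 0.051 SE, adjusted p = 7.47e-08), and this member had the lowest adjusted p of the 10. Counts per gene do not separate the splice forms of versican or of any other member.

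Ncan (ENSMUSG00000002341, chr8:70093085-70120873) encodes neurocan, a lectican largely restricted to the nervous system. Control libraries held 679 to 849 CPM with a median of 724, and mimic libraries 898 to 994 with a median of 929. The groups did not overlap. The mean rose 1.26-fold (743 ± 67.3 to 936 ± 36.9 CPM; log2 fold change 0.33 ± 0.051 SE, adjusted p = 0.00012).

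Acan (ENSMUSG00000030607, chr7:79053483-79115099) encodes aggrecan, the lectican on which the assembly of perineuronal nets depends. Its controls ran from 13.1 through a median of 13.8 to 16.4 CPM and its mimic libraries from 11.2 through 12.0 to 13.4 CPM. Of the mimic libraries 5 lay below every control and 1, mimic replicate 2, reached into their range. The mean fell 13.8% or, as a log2 fold change, was -0.21 ± 0.062 SE (14.1 ± 1.19 to 12.1 ± 0.834 CPM, adjusted p = 0.0189). The highest control was replicate 1; without it the log2 fold change was -0.17 and still passed. Pvalb, chosen for mention after its values were seen, encodes the calcium-binding protein of the interneurons that carry most nets and was 3.25 ± 0.633 CPM in control and 1.83 ± 0.405 in mimic (log2 fold change -0.85, adjusted p = 0.000538). Of the other 10 interneuron markers 3 were higher and none lower, with the list at 458 to 509 CPM in control and 510 to 536 in mimic; the part of these cells in the Acan result was not tested.

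Levels of different genes were compared per length, as CPM per kb of exon. The 4 lecticans together were at 173 ± 23.6 CPM per kb in control and 251 ± 13.8 in mimic. Ncan was 54.4 to 62.1% of that sum in control and 49.4 to 53.4% in mimic, and Bcan 34.6 to 43.1% and 43.8 to 47.7%. Acan was the smallest share at 1.01 to 1.24% and 0.568 to 0.754%, with every mimic library under every control. The share of Vcan, 1.48 to 2.34% and 1.96 to 2.21%, overlapped between the groups. Almost all lectican RNA in these cultures was thus Ncan and Bcan, in both groups.

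**Figure D2:**
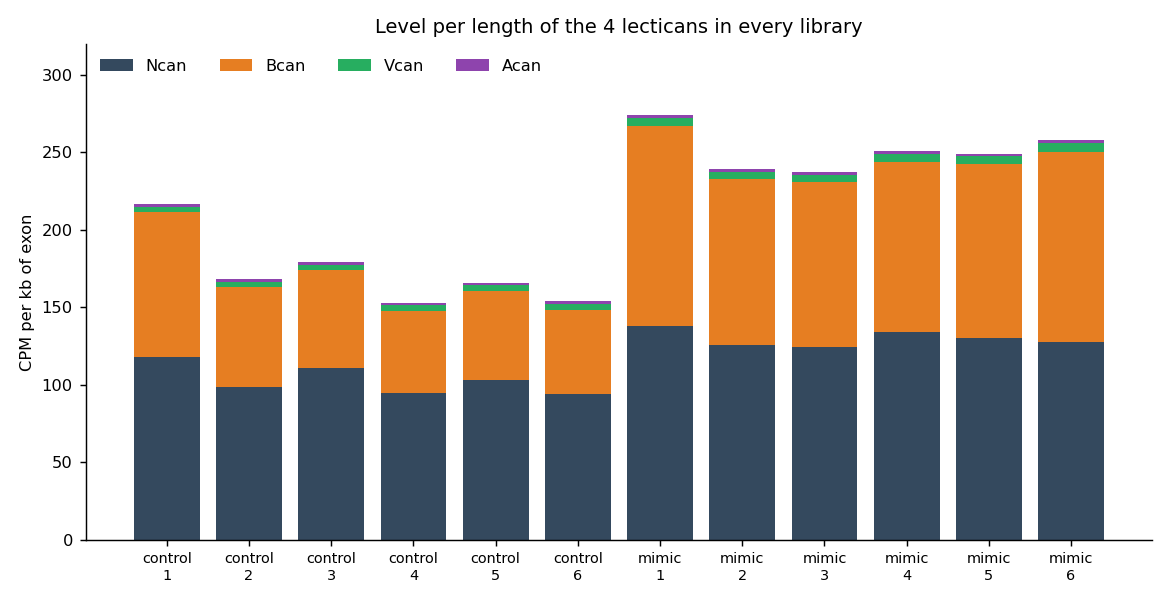
Summed level of the 4 lecticans per length (vertical axis, CPM per kb of exon, from 0) in each of the 12 libraries, stacked by gene. The sums are 153 to 217 in control, highest in control replicate 1, and 237 to 274 in mimic, and Ncan and Bcan make up nearly all of each bar.

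Cspg5 (ENSMUSG00000032482, chr9:110243783-110262576) encodes neuroglycan C, a transmembrane proteoglycan of neurons and some glia that lacks a hyaluronan-binding domain. Control libraries ran from 348 through a median of 372 to 467 CPM, and mimic libraries from 392 through 397 to 415 CPM. All mimic libraries lay inside the range of the controls, whose top value was again control replicate 1. No difference was called (log2 fold change 0.058, 95% interval -0.06 to 0.18, adjusted p = 0.524). Without control replicate 1 the log2 fold change was 0.12 with an adjusted p of 0.00617, and without control replicates 1 and 2 it was 0.14 with an adjusted p of 0.000346, so the call turned on that library.

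The link proteins clamp lecticans to hyaluronan. Hapln1 (ENSMUSG00000021613, chr13:89539796-89611652) had control values from 62.9 through a median of 87.6 to 97.0 CPM and mimic values from 92.5 through 102 to 125 CPM. Of the mimic libraries 4 lay above every control, and control replicates 1 and 2 were the 2 lowest values, at 68.4 and 62.9. The mean rose 1.26-fold (83.1 ± 14.4 to 105 ± 12.1 CPM; log2 fold change 0.34 ± 0.11 SE, adjusted p = 0.0351). Without control replicate 1 the log2 fold change was 0.29 and the call was lost (adjusted p = 0.111), without control replicate 2 it was 0.27 and passed (adjusted p = 0.0486), and without both it was 0.20 and did not pass (adjusted p = 0.138). Leaving out control replicate 3 or mimic replicate 2 or 3 also lost the call, with adjusted p of 0.0565, 0.0561 and 0.067.

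Hapln4 (ENSMUSG00000007594, chr8:70083457-70090862), the brain link protein that appears with mature nets, was low, with 2.20 to 3.53 CPM in control and 2.60 to 3.45 in mimic. The groups overlapped throughout, and no difference was called (log2 fold change 0.20, 95% interval -0.05 to 0.45, adjusted p = 0.262). Its UTR holds 1 miR-148a-3p match, shown above.

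Has2 (ENSMUSG00000022367, chr15:56665627-56694539) makes the long hyaluronan chains of the developing matrix and was the member with the fewest reads, 14 to 52 counts a library. Control libraries held 0.707 to 1.25 CPM and mimic libraries 0.813 to 1.55. No difference was called (log2 fold change 0.12, 95% interval -0.25 to 0.50, adjusted p = 0.693). Without mimic replicate 3, the highest value, the log2 fold change was -0.017. It shares 182 exon bases with the antisense gene Has2os, which had 16.6 counts a library on average beside 30.8 for Has2, and the kit does not mark strand, so reads of that overlap cannot be assigned.

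The tenascins are large glycoproteins that bind lectican tails. Tnr (ENSMUSG00000015829, chr1:159523769-159931729), tenascin-R, is the cross-linker of mature nets. Its controls ran from 96.0 through a median of 108 to 115 CPM and its mimic libraries from 115 through 119 to 125 CPM. Of the mimic libraries 5 lay above every control. The mean rose 1.11-fold (108 ± 6.79 to 120 ± 3.58 CPM; log2 fold change 0.15 ± 0.042 SE, adjusted p = 0.0129), the smallest of the called rises among the members.

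Tnc (ENSMUSG00000028364, chr4:63959785-64047015), tenascin-C, belongs to the developing and injured brain. Control libraries ran from 73.4 through a median of 84.8 to 95 CPM and mimic libraries from 70.0 through 76.4 to 89.4. The groups overlapped and no difference was called (log2 fold change -0.13, 95% interval -0.27 to 0.01, adjusted p = 0.178). The interval leaves a fall of up to 0.27 on the log2 scale and almost no rise. It shares 176 exon bases with an antisense transcript that averaged 12.5 counts, against 2419.8 for Tnc.

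In order of level per length, control cultures had Ncan (103 CPM per kb) first, then Bcan (64.5), Cspg5 (38.2), Hapln1 (14.1), Tnc (10.9), Tnr (8.37), Vcan (3.31), Acan (1.89), Hapln4 (0.697) and Has2 (0.232). The ranges over libraries overlapped only between Hapln1 and Tnc among neighbours in that order. In mimic the order was the same, with Bcan at 114 and Ncan at 130 CPM per kb, whose ranges now overlapped, as did those of Tnc (9.94) and Tnr (9.32). Hapln1 (17.8) and Tnc no longer overlapped.

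Within a library 4 ratios of members, which do not depend on how libraries are scaled, set against each other components with an overlapping role (log2 ratio per length, exact permutation test over 924 relabellings, two-sided, adjusted over the 4 ratios; 0.00216 is the smallest p possible). Acan over Vcan, the lectican of the net over that of the developing matrix, was -0.81 ± 0.17 (SD) in control and -1.68 ± 0.16 in mimic, a difference of -0.87 with no overlap (exact p = 0.00216, adjusted 0.00433). Bcan over Ncan was -0.70 ± 0.20 in control and -0.19 ± 0.093 in mimic, a difference of 0.51, again with no overlap (exact p = 0.00216, adjusted 0.00433). The control closest to the mimic range was replicate 1, at -0.33.

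Tnr over Tnc was -0.38 ± 0.19 in control and -0.09 ± 0.16 in mimic, a difference of 0.29 (exact p = 0.0238, adjusted 0.0317). All 6 mimic libraries were above the control mean while the ranges, -0.65 to -0.20 and -0.31 to 0.11, overlapped. This call was lost in 7 of 15 alternatives, among them without control replicate 2 (0.23, adjusted exact p = 0.0519). Hapln4 over Hapln1 was -4.33 ± 0.48 and -4.49 ± 0.19, a difference of -0.16 that was smaller than the spread (exact p = 0.459, adjusted 0.459). Without control replicates 1 and 2 its sign turned, to 0.11.

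**Figure D3:**
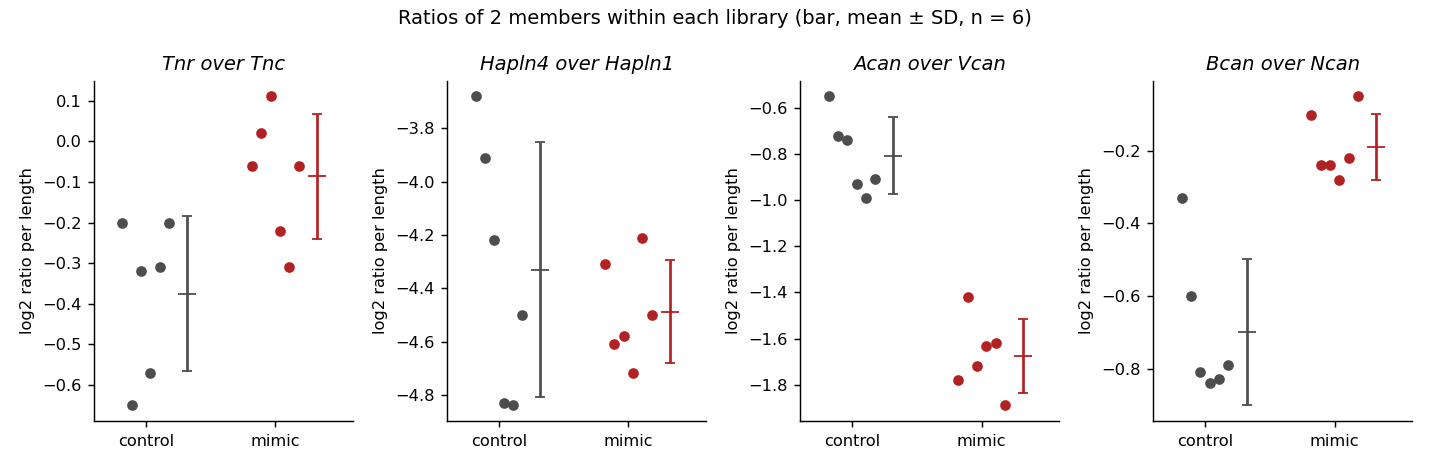
Log2 ratio of 2 members per length within each library (vertical axes, which do not start at 0), with mean ± SD beside the 6 control (grey) and 6 mimic (red) libraries. Acan over Vcan and Bcan over Ncan separate the groups completely, Tnr over Tnc partly and Hapln4 over Hapln1 not at all.

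Each lectican gene has a link protein gene beside it on the chromosome, with no annotated protein-coding gene between; differences within a pair were not tested. Vcan and Hapln1 lie 43.7 kb apart and both rose (0.65 and 0.34 on the log2 scale). Ncan rose (0.33) while Hapln4, 2.22 kb away, did not pass (0.20). Bcan rose (0.83) while Hapln2, 21.5 kb away, was hardly expressed at 4 to 11 counts a library and did not pass (-0.09). Acan fell (-0.21) while Hapln3, whose annotated end lies 2 bases from that of Acan on the other strand, rose (0.95).

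A further 5 lists of genes that act on the same matrix were read in the same fit. Among all 18847 tested genes 11.5% were higher and 10.7% lower, that is 2163 and 2019 genes. A required fold of at least 1.2 left 683 higher and 352 lower. Without control replicates 1 and 2 together 3058 were higher and 2892 lower. Of 12 other proteoglycans, link proteins, hyaluronan synthases and partners 5 were higher and none lower, with a median log2 fold change of 0.05. Hapln3, a link protein better known outside the brain, rose from 4.53 ± 0.273 to 8.74 ± 0.818 CPM (log2 fold change 0.95, adjusted p = 4.32e-08). Cspg4, the NG2 proteoglycan of oligodendrocyte precursors and also one of the precursor markers above, rose from 10.1 ± 1.55 to 16.2 ± 1.40 CPM (0.69, adjusted p = 1.52e-05). Ptprz1, whose secreted form is phosphacan, a proteoglycan of the net, rose from 1080 ± 80.1 to 1600 ± 87.0 CPM (0.57, adjusted p = 2.71e-07). Nptx2, a secreted pentraxin that binds nets, rose from 16.4 ± 3.15 to 23.2 ± 3.12 CPM (0.52, adjusted p = 0.00339). The hyaluronan synthases Has1 (-0.66, adjusted p = 0.144) and Has3 (0.06, adjusted p = 0.616) did not pass, as Has2 did not, and Has1 had only 3 to 12 counts a library. Has3 shares 352 exon bases with the more abundant Chtf8 on the other strand.

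Chondroitin sulfate chains are built on the core proteins by a series of Golgi enzymes. Of 12 such genes 7 were higher and none lower, with a median log2 fold change of 0.15 and most changes small. Xylt1, which attaches the first sugar to the core protein, rose from 71.0 ± 7.68 to 123 ± 9.92 CPM, with no overlap (0.79, adjusted p = 1.84e-07). Csgalnact1, which starts the chondroitin chain, rose by 0.40 on the log2 scale, and the chain polymerases Chsy3 and Chsy1 rose by 0.36 and 0.24. The count of 7 was 4 with the replicate number as a block and without control replicate 3, 4 or 6 or mimic replicate 6, and 1 when a fold of at least 1.2 was required.

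Sulfation sets the binding properties of the finished chain. Of 11 tested genes 6 were higher and 1 lower, with a median of 0.15; Chst13 did not pass the count filter. With a required fold of at least 1.2 the 6 became 2. Chst7, a 6-O-sulfotransferase, rose from 2.85 ± 0.774 to 5.93 ± 1.15 CPM (1.08, adjusted p = 5.83e-05), and Chst14, which sulfates dermatan, from 2.02 ± 0.354 to 4.21 ± 0.932 CPM (1.06, adjusted p = 5.27e-05). Chst3, the main chondroitin 6-O-sulfotransferase, rose by 0.30, and Chst11, a 4-O-sulfotransferase, by 0.19 with a far higher level (151 ± 4.10 to 173 ± 2.78 CPM). Papss2, which makes the sulfate donor, fell by 0.55 on the log2 scale (2.70 ± 0.367 to 1.85 ± 0.224 CPM, adjusted p = 0.00139). Papss1, the other synthase of that donor, named after its values were seen, was far more abundant at 98.0 CPM in control and 98.1 in mimic and was not called. Sulfotransferases of both the 4-O and the 6-O kind were thus among the genes that rose.

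Of 19 matrix proteases, their inhibitors and hyaluronan-degrading enzymes 8 were higher and 5 lower, with a median of 0.10, and 4 and 2 with a required fold of at least 1.2. Mmp14, a membrane-bound metalloproteinase that activates Mmp2, rose from 46.3 ± 9.86 to 108 ± 8.82 CPM (1.23, adjusted p = 7.51e-07), and Mmp2 itself from 15.9 ± 2.13 to 30.4 ± 4.58 CPM (0.94, adjusted p = 3.78e-06). Timp1, a metalloproteinase inhibitor, fell by 0.93 on the log2 scale (2.66 ± 0.708 to 1.40 ± 0.216 CPM, adjusted p = 0.000502). The other inhibitors of its family, named after their values were seen, were more abundant and went both ways. Timp3 (108 CPM in control) fell by 0.28 on the log2 scale. Timp4 (28.6 CPM in control), which shares 90 exon bases with the more abundant Syn2 on the other strand, rose by 0.44. Timp2 (917 CPM in control) was at -0.08 and was not called. Adamts4, which cleaves aggrecan and brevican, rose from 3.34 ± 0.409 to 5.37 ± 0.528 CPM (0.69, adjusted p = 3.24e-05). The count of Adamts4 is uncertain, since the kit does not mark strand. Adamts5, with the same substrates, was at 0.28 and did not pass (adjusted p = 0.0774). The other called proteases, named after their values were seen, went both ways. Adamts9 was higher (0.28), while Adamts1 (-0.13) and Mmp3 (-1.58, at 2 to 14 counts a library) were lower.

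Of 12 receptors for chondroitin sulfate, hyaluronan and tenascins 3 were higher and 2 lower, with a median of -0.01. Over all tested genes 11.5% were higher and 10.7% lower. A required fold of at least 1.2 left 0 receptors lower, and without control replicates 1 and 2 together 5 were higher. The numbers called over all genes moved the same way in both settings. Hmmr, a hyaluronan-binding protein of the mitotic spindle, rose from a median of 9.72 to one of 22.3 CPM (1.17, adjusted p = 7.35e-09), beside the 8 of 8 higher markers of proliferating cells. Itgb1, an integrin subunit, rose by 0.43. Cd44, the main cell-surface hyaluronan receptor, fell by 0.29 on the log2 scale (52.6 ± 6.37 to 43.0 ± 2.64 CPM, adjusted p = 0.00481), and Nrp1, the co-receptor for Sema3a, by 0.30 (366 ± 7.28 to 297 ± 7.50 CPM, adjusted p = 1.05e-06). Ptprs, a phosphatase receptor for chondroitin sulfate, did not pass (0.05, adjusted p = 0.608).

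**Figure D4:**
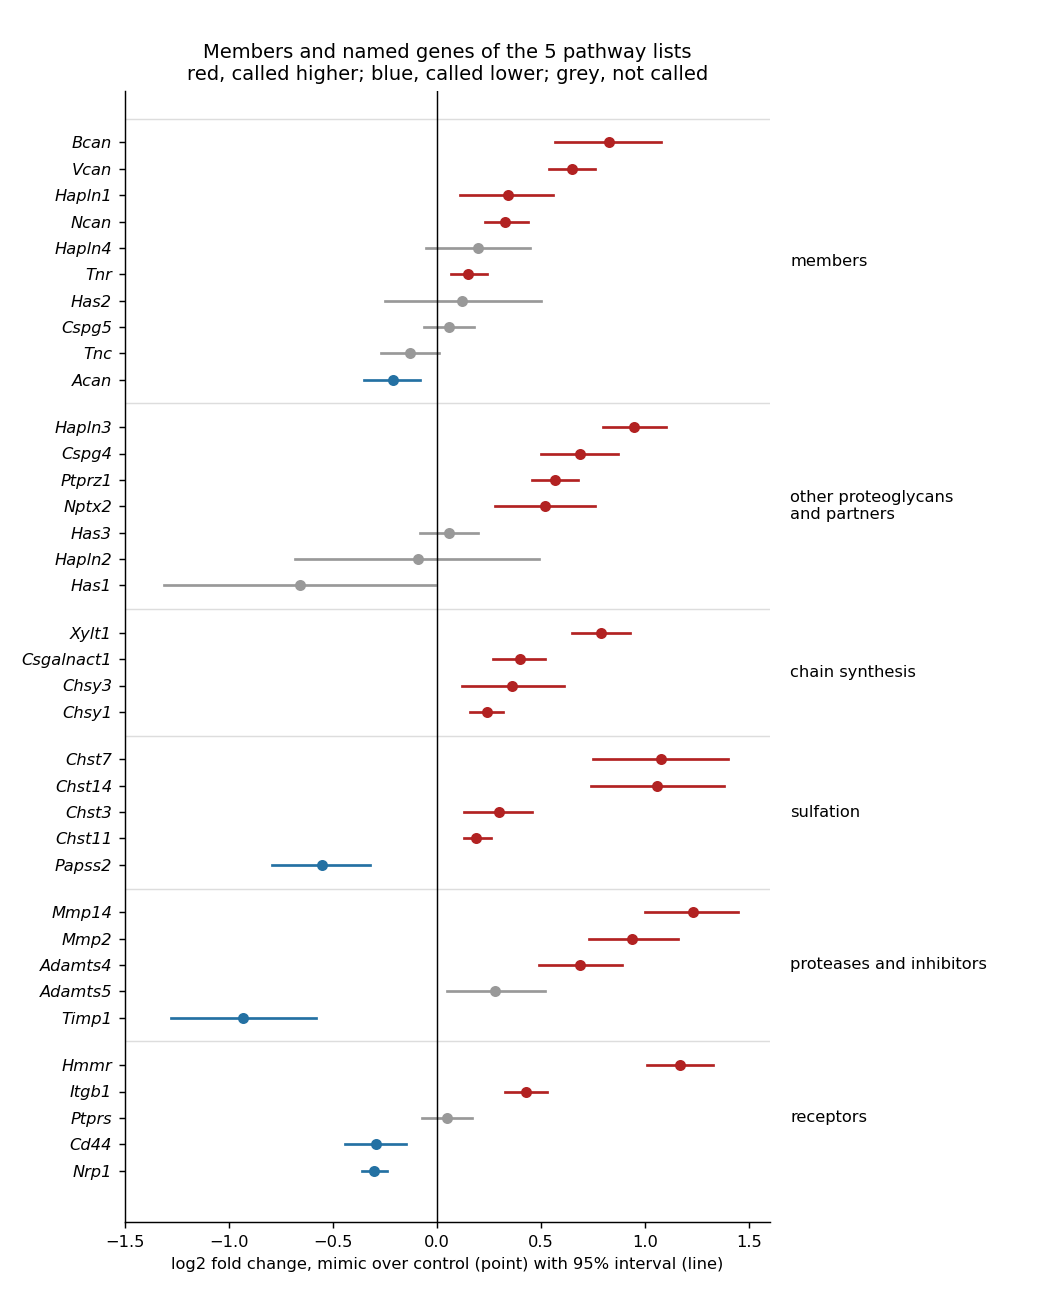
Log2 fold change of mimic over control (horizontal axis) with its 95% interval for the 10 members and the named genes of the 5 lists; red points were called higher, blue lower and grey not called. Among the members the points run from -0.21 for Acan to 0.83 for Bcan, and the intervals of Hapln4, Has2, Cspg5 and Tnc cross 0.

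Across 21 other analyses of the same counts Bcan and Vcan kept their call in all of them, with log2 fold changes of 0.78 to 1.00 and 0.61 to 0.68. Acan, Ncan and Tnr lost theirs only when a fold of at least 1.2 was required, and Hapln1 lost it in 8.

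**Figure D5:**
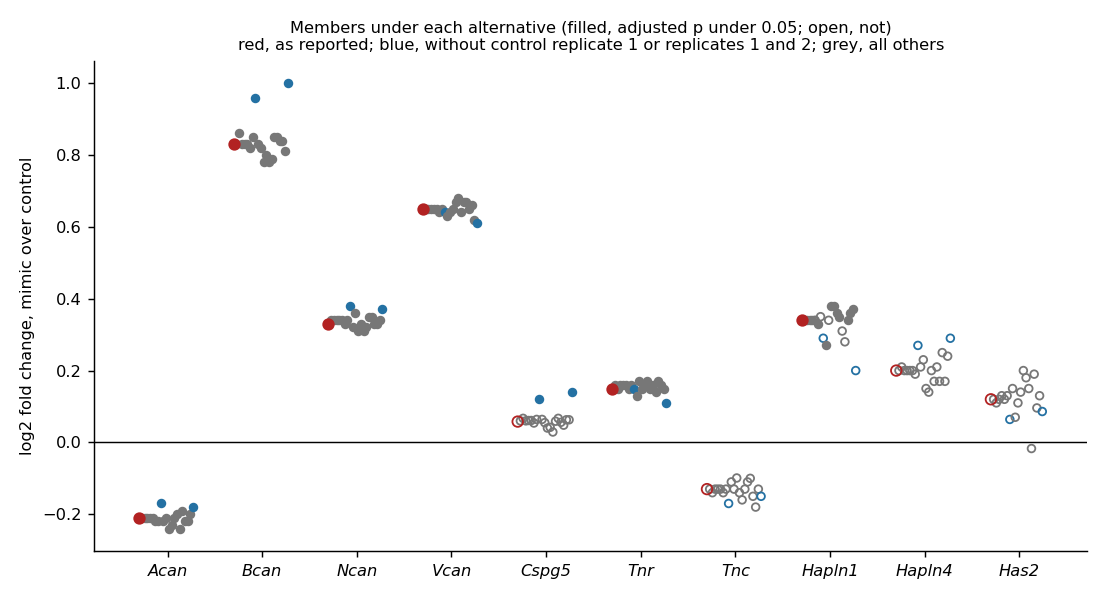
Log2 fold change of each member (vertical axis) as reported (red) and in the 21 alternatives, without the one that required a minimum fold. Those that leave out control replicate 1 or control replicates 1 and 2 are in blue. Filled points have an adjusted p under 0.05 and open points do not. With the required fold, which is not drawn, Acan, Ncan, Tnr and Hapln1 lost their call. The blue points lie above the rest in Bcan and Cspg5, and Hapln1 has both filled and open points.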

How the data were processed

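Per the labels, poly(A) RNA of 12 samples was made into libraries with a TruSeq kit that does not mark strand and read from one end over 50 bases. The authors mapped these to mm10 with STAR (2.5.2b) and deposited, per gene, the raw counts that featureCounts (Subread 1.5.1) gave, which were used as they stand. A deposited table of normalized values was not used because its column names are in no sample title or description. Groups and replicate numbers came from the sample titles.

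Genes that reached 5 counts in 50% or more of the libraries were tested with edgeR (4.0.16, R 4.3.3; TMM, robust quasi-likelihood F-test, no covariate, Benjamini-Hochberg, adjusted p under 0.05); all adjusted p-values of genes are from this fit unless another analysis is named. DESeq2 (1.42.0), which the study used with the same filter, and limma (3.58.1) were alternatives. CPM are relative to TMM-scaled totals, and the length of a gene is that of its merged exons. Ratios took counts plus 0.5. At 20018234 to 37149112 counts a library, all members but Has2 and Hapln4 had 319 or more counts in each library. Symbols, positions and UTRs came from GENCODE M21 on GRCm38, the build of mm10; 48349 of the 48709 genes were named.

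The members, lists and tests were chosen with earlier results of these data known. The named genes are the members, up to 4 called genes of each of the 5 lists with the largest log2 fold change and a mean of at least 20 counts, and 12 genes named whatever their call. The other marker lists, with genes higher and lower of those tested, were interneurons (3 and 1 of 11), oligodendrocytes (1 and 1 of 7), microglia (0 and 2 of 9), endothelial cells (0 and 2 of 6), mesenchymal and mural cells (1 and 2 of 9) and ependymal cells (0 and 4 of 7).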

Additional observations from a re-analysis of the deposited data

Results flagged for a closer look

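Control replicate 1 lay farther from the other controls than Dixon's 95% limit for 6 samples in 3 members. It was at 16.4 CPM in Acan, where the next control was at 14.4, at 380 CPM in Bcan, where the next was at 265, and at 467 CPM in Cspg5, where the next was at 389. Such gaps were looked for in 28 sets of 6 libraries, in which chance alone gives about 1.4, and these 3 are values of 1 library. The same library had the lowest total, 20018234 counts, and the highest Olig1 among the controls, 594 CPM against 306 to 339. The precursor markers Olig2 (41.2 CPM, next control 36.6) and Cspg4 (12.2 CPM, next control 11.8) were also highest there. Pdgfra, Sox10, Gpr17 and Lhfpl3 were not, with Lhfpl3 at 15.5 CPM against up to 18.9. The part of these markers in the 3 values was not tested.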

How the results depend on the processing

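Of 21 alternatives only a required fold of 1.2 moved the number of members called by over 1.5 times, to 2 higher (Bcan and Vcan) and 0 lower; 683 genes were then called higher and 352 lower in all, against 2163 and 2019 in the reported fit. Leaving out 1 library gave 4 to 5 members higher and 1 lower. Hapln1 lost its call in 8 alternatives (no count filter, required fold, replicate block, and without controls 1, 3 or 1 and 2 together, or mimic 2 or 3), and the cause was not tested. Cspg5 gained a call without control 1, and Has2, not tested at a minimum of 50 counts, turned to -0.017 without mimic replicate 3 (0.20 at most without 1 library). Tnr over Tnc ranged from 0.23 to 0.33 when 1 library was left out and lost its call 5 times; without controls 1 and 2 it was 0.26 (adjusted exact p = 0.0571) and Hapln4 over Hapln1 turned to 0.11 (adjusted exact p = 0.49). With the replicate number as a block, Tnr over Tnc (0.29, adjusted exact p = 0.0833), Acan over Vcan (-0.87, 0.0625) and Bcan over Ncan (0.51, 0.0625) did not pass (exact p of 0.0625, 0.03125 and 0.03125 before adjustment, where 64 sign flips allow 0.03125 at the least); the block cannot change these sizes, so this says nothing about stability; in edgeR the block gave 4 members higher and 1 lower. Same-numbered samples correlated by -0.08 to 0.182, and only mimic replicate 1 correlated best with its own number. Such low correlations gave little sign of a pairing by number but cannot exclude it. The alternative on the table of normalized values was not run. Among the members Has2 had the fewest reads, 14 to 52 counts a library.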
